A study of Mus musculus with 9 samples.

Results

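Voltage-gated sodium and calcium channel genes were described across the retinas of 9 mice. They were taken by name from the protein-coding genes of the count table, as every Scn gene of an alpha or beta subunit and every Cacna1, Cacna2d, Cacnb and Cacng gene, which gave 40 of the 54532 genes listed. The 40 fall into 10 sodium alpha, 4 sodium beta, 10 calcium alpha1, 4 alpha2delta, 4 calcium beta and 8 calcium gamma genes. All mice were wild-type C57BL/6 and their retinas were taken at postnatal day (P) 17. Control mice 1, 6 and 7 were kept in room air and are labelled with the vehicle DMSO. OIR mice 3, 5 and 6 underwent oxygen-induced retinopathy (OIR), in which newborn mice are kept in high oxygen and then returned to room air so that the central retina loses capillaries and becomes ischemic, and received DMSO in the eye at P12. Treated OIR mice 2, 5 and 10 went through the same model and received 32-134D, an inhibitor of hypoxia-inducible factors (HIFs), in a single intraocular injection at P12, at a dose given as 70 ng. Whole retina holds all of its cell types at once, so fewer cells of a type and less RNA per cell cannot be told apart in any value below.

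A voltage-gated sodium channel is a pore-forming alpha subunit that opens on depolarization and carries the upstroke of the action potential, together with small beta subunits that set its gating and its place in the membrane. A voltage-gated calcium channel has an alpha1 subunit as its pore, an intracellular beta subunit and an extracellular alpha2delta subunit that bring the pore to the membrane, while most proteins called gamma act instead as auxiliary subunits of AMPA-type glutamate receptors. In the retina, ganglion cells fire sodium spikes down the optic nerve and some amacrine cells spike as well, whereas photoreceptors and bipolar cells signal with graded potentials and release transmitter through L-type calcium channels at ribbon synapses, where Cacna1f is the pore, Cacnb2 the beta subunit and Cacna2d4 the alpha2delta subunit.

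Several of the genes lie side by side in the genome (GRCm38). Scn3a, Scn2a, Scn1a, Scn9a and Scn7a, in that order, occupy chromosome 2 from 65457118 to 66784914. Scn10a and Scn11a follow each other on chromosome 9 from 119608456 to 119825456, and Scn2b (chr9:45117782-45130070) is next to Scn4b (chr9:45138395-45154152) on the same chromosome. Cacng7, Cacng8 and Cacng6 are neighbours on chromosome 7 from 3332955 to 3435667, and Cacng1, Cacng4 and Cacng5 on chromosome 11 from 107703218 to 107915055.

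The sequence just upstream of these genes varied widely in composition. RefSeq (GRCm38.p6) gave 41 promoters for 30 of the 40 genes, and in the 250 bases before each start the median GC content was 56.8% and the median number of CpG dinucleotides 8, beside 52.4% and 6 over all 32817 mouse promoters. Printed here are 5 of them, 5′ to 3′, to show this range among genes that the results below turn on, with capitals marking the core of the hypoxia response element, to which HIFs bind. Scn2a (chr2:65620519-65620768, plus strand) encodes a neuronal sodium alpha subunit and had the lowest GC content of the 41, 29.6%. Cacng5 (chr11:107915056-107915305, minus strand) and Cacna2d3 (chr14:29721865-29722114, minus strand) had lower levels in every OIR mouse than in any control mouse, as did Cacna2d1 (chr5:15934441-15934690, plus strand), whose window is 82.4% GC and holds 36 CpG. Cacna1f (chrX:7606853-7607082, plus strand), the photoreceptor pore, overlapped between the groups, and 230 of its bases lie outside annotated exons and are shown.
Scn2a: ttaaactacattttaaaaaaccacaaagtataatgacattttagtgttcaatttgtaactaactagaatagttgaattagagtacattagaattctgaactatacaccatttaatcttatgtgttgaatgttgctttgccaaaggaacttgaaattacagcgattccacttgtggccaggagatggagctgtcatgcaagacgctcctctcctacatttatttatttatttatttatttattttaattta
Cacng5: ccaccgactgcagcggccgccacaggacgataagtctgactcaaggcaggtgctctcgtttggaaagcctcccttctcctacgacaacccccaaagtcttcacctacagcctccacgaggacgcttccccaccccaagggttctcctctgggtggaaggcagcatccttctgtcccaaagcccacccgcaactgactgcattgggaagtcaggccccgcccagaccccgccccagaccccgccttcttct
Cacna2d3: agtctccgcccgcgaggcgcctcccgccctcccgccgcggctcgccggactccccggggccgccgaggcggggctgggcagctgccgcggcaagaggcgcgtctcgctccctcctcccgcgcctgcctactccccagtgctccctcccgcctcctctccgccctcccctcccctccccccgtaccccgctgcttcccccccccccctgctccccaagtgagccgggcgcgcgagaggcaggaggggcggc
Cacna2d1: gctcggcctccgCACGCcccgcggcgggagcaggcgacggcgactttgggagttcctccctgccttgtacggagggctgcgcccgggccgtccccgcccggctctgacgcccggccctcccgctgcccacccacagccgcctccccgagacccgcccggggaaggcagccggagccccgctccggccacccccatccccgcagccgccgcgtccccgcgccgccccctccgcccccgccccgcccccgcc
Cacna1f: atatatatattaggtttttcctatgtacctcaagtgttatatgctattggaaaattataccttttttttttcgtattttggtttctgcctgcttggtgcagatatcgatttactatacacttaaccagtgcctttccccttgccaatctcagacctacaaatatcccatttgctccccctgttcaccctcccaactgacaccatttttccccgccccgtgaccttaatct
The hypoxia core was searched as ACGTG or GCGTG on both strands and was found in 17 of the 41 promoters, or 41.5%, compared with 38.6% of all promoters. Among the printed windows, Cacna2d1 held 1 match and the others none. Cacng5 and Scn2a each have a further promoter that is not printed. That of Cacng5 held 1 match, and that of Scn2a held 0 and had 53.2% GC. The half-site TCAGCACC of the RE1 element, which the neuronal repressor REST binds, was in 0 of 41 promoters and in 1.33% of all, and the E-box CACGTG, which contains ACGTG, was in 0 of 41 and in 6.02% of all. These matches describe the letters in the windows only.

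Libraries held 16028731 to 27213184 counts, and 36 of the 40 genes had enough counts to be tested among 17540 genes. The remaining 4 were at or near 0. Scn11a, a sodium alpha subunit of pain-sensing neurons, had 12, 12 and 15 counts in controls, 5, 2 and 2 under OIR, and 2, 0 and 0 under OIR with 32-134D. Scn10a, of the same neurons, and the gamma genes Cacng1 and Cacng6 had 0 to 6 counts in every mouse. A count of 0 in the library of treated OIR mouse 10 allowed up to 0.0194 FPKM of Scn10a, taking 3 counts as the limit. FPKM here is the count scaled to the library size, after edgeR's TMM adjustment between libraries, and to the deposited gene length, so levels of different genes are compared only on this scale. A single library stood apart: lens crystallins made up 15.8% of the counts of treated OIR mouse 2 and at most 0.184% elsewhere, and the summed level of 8 lens markers was 51648 FPKM there and 4.29 to 376 FPKM in the other 8 mice. Results that rest on this mouse are given with and without it. Levels in single mice are always listed in the order control 1, 6 and 7, OIR 3, 5 and 6, and treated OIR 2, 5 and 10.

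In control retinas, the most abundant gene by FPKM was Scn1a among sodium alpha genes, Cacna2d4 among alpha2delta genes, Cacna1f among calcium alpha1 genes, Cacnb3 among calcium beta genes and Cacng7 among calcium gamma genes. Summed over a class, levels were 168 ± 24.2 FPKM (SD, n = 3) for gamma, 66.3 ± 3.65 for calcium alpha1, 55.5 ± 4.60 for alpha2delta, 45.0 ± 6.23 for calcium beta and 20.8 ± 1.26 for sodium alpha genes. Calcium alpha1 and alpha2delta genes, neighbours in this order, had ranges that did not overlap (62.2 to 69.3 and 50.9 to 60.1 FPKM). Scn8a had 5.29 ± 0.378 FPKM and Scn1a 5.33 ± 1.01 FPKM, so the leading sodium alpha genes did not differ beyond their spread, while calcium beta and alpha2delta sums overlapped at 39.3 to 51.6 and 50.9 to 60.1 FPKM.

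OIR mice were compared with control mice to ask whether the ischemic retina differs in these genes at P17. Most of them were lower in every OIR mouse than in any control mouse, among them all 6 gamma genes tested, 6 of 10 calcium alpha1 genes, 3 of 4 alpha2delta and 3 of 4 calcium beta genes, and Scn1a, Scn2a, Scn2b and Scn3b. Scn8a and Cacna1f overlapped, and Cacna2d4 and Cacnb2 were higher in every OIR mouse. In 27 of 36 genes every OIR mouse was below every control mouse, and in 2, Cacna2d4 and Cacnb2, every OIR mouse was above, beside 17.2% and 15.9% of all genes tested. The median log2 fold change was -0.92 over the 36 genes and 0.03 over all genes, with 30 below 0 and 6 above. None passed an adjusted p below 0.05 in edgeR's quasi-likelihood test on the counts with all 9 mice in the fit, where 0.507% of all genes were called lower and 0.433% higher. The smallest adjusted p was 0.0576, for Cacng7. At an unadjusted p below 0.05, edgeR counted 19 genes lower and 1 higher, Cacna2d4, beside 12.7% and 11.1% of all genes.

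The spread in that fit is estimated over all 3 groups, and the number of calls depended on a treated library outside the comparison. With treated OIR mouse 2 left out of the edgeR fit, 22 of 37 genes fell in OIR at an adjusted p below 0.05 and none rose, where 8.59% of all genes fell and 3.95% rose. DESeq2 fitted to the control and OIR mice alone called 24 of 40 lower and none higher, beside 5.69% and 3.08% of all genes, and all 22 were among the 24, with Cacna1g and Cacng8 added. A set of 15 genes was called in each of these and in both edgeR on the same pair of groups, which called 19 (7.44% of all genes lower, 2.88% higher), and limma-voom with a weight per mouse, which called 17 (7.91% lower, 5.23% higher). Among the 15 are Scn2b, Scn3b, Cacna1a, Cacna1b, Cacna1c, Cacna1i, Cacna2d2, Cacna2d3, Cacnb1, Cacnb3, Cacnb4, Cacng2, Cacng3 and Cacng7. OIR mouse 6 was the lowest of the OIR mice in 29 of 36 genes. Without it the unadjusted count in edgeR dropped to 8 lower and 1 higher, and the share of all genes in that fit was not counted. By OIR mice 3 and 5 alone, the same 27 of 36 genes lay below all control mice, compared with 20% of all genes. That count could not fall when OIR mouse 6 was dropped, so it does not show whether the result rests on that mouse.

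**Figure D1:**
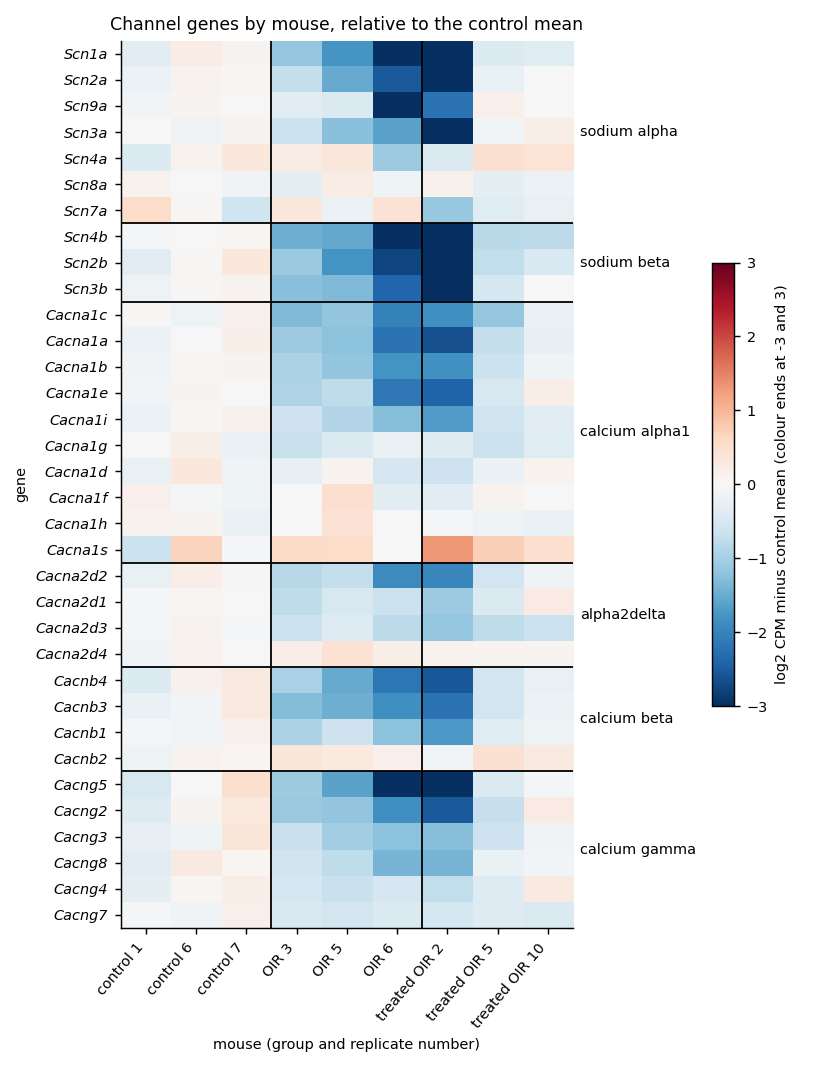
Log2 CPM (counts scaled to library size, log2) of 34 of the genes tested, minus the mean of the 3 control mice, with 1 column per mouse and genes grouped by subunit class; blue is lower and red higher, and colours end at -3 and 3. Most sodium beta, calcium beta and gamma genes are blue in all 3 OIR mice and deepest in OIR mouse 6 and treated OIR mouse 2, while Scn8a, Cacna1f, Cacna1h, Cacna2d4 and Cacnb2 stay pale throughout.

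Scn2b, which is linked to the alpha subunit by a disulfide bond, had 18.0, 23.5 and 28.4 FPKM in controls, 10.6, 6.63 and 3.38 under OIR, and 2.10, 13.7 and 16.7 under OIR with 32-134D. Every OIR mouse was below every control mouse, treated OIR mice 5 and 10 lay between the OIR and the control mice, and treated OIR mouse 2 was the lowest of all. The log2 fold change in OIR was -1.76 (SE 0.65, edgeR adjusted p = 0.149), and -1.78 (adjusted p = 0.0116) in edgeR without treated OIR mouse 2. Scn4b, the subunit tied to resurgent sodium current, was at 2.19, 2.26 and 2.37 FPKM in controls, 0.805, 0.767 and 0.0632 under OIR, and 0, 1.29 and 1.30 under OIR with 32-134D. Its 0 counts in treated OIR mouse 2 allow up to 0.0382 FPKM, and OIR mouse 6 had 7 counts beside 75 and 82 in the other OIR mice. It had the lowest log2 fold change of any member, -2.06 (SE 1.13, edgeR adjusted p = 0.299), and also the widest error. Scn3b, a further beta subunit, had 5.31, 6.01 and 6.38 FPKM in controls, 2.45, 2.35 and 1.11 under OIR, and 0.627, 4.05 and 5.95 under OIR with 32-134D. Its OIR mice were below every control mouse, while treated OIR mouse 10 lay within the control range, and the log2 fold change in OIR was -1.58 (SE 0.63, edgeR adjusted p = 0.172).

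Among the 8 sodium alpha genes tested, none passed an unadjusted p below 0.05 in the 9-mouse edgeR fit. Scn1a, a pore subunit of fast-spiking neurons, was at 4.21, 6.19 and 5.60 FPKM in controls, 2.37, 1.53 and 0.412 under OIR, and 0.222, 3.97 and 4.09 under OIR with 32-134D. OIR mouse 6 retained 7.72% of the control mean and OIR mouse 3 44.4%, so the direction was shared and the size was not. The log2 fold change was -1.89 (SE 0.87, edgeR adjusted p = 0.226) and, in edgeR without treated OIR mouse 2, -1.91 (adjusted p = 0.0288). Scn2a, found along unmyelinated axons, was at 2.63, 3.20 and 3.08 FPKM in controls, 1.79, 1.04 and 0.509 under OIR, and 0.339, 2.53 and 2.98 under OIR with 32-134D, with a log2 fold change in OIR of -1.42 (SE 0.67, edgeR adjusted p = 0.238). Scn3a and Scn9a were also lower in every OIR mouse and had log2 fold changes of -1.13 (SE 0.63) and -0.90 (SE 0.75), and Scn9a rested on 6 to 82 counts. Scn8a, the alpha subunit that concentrates at axon initial segments and nodes of Ranvier, was at 5.67, 5.29 and 4.92 FPKM in controls, 4.28, 6.15 and 4.83 under OIR, and 5.79, 4.30 and 4.70 under OIR with 32-134D. Its groups overlapped throughout, and the log2 fold change in OIR was -0.06 (SE 0.15, edgeR adjusted p = 0.860). Scn7a, a sodium-sensing channel of glia, was at 2.05, 1.43 and 0.923 FPKM in controls, 1.73, 1.23 and 1.89 under OIR, and 0.631, 1.09 and 1.19 under OIR with 32-134D. It and Scn4a, the alpha subunit of skeletal muscle, overlapped between OIR and control as well, at 0.14 (SE 0.33) and -0.07 (SE 0.38). Skeletal muscle myosins Myh1 and Myh4 were at 0 to 0.0965 FPKM in all mice, and the summed level of 10 muscle markers was 5.98 to 9.29 FPKM.

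**Figure D2:**
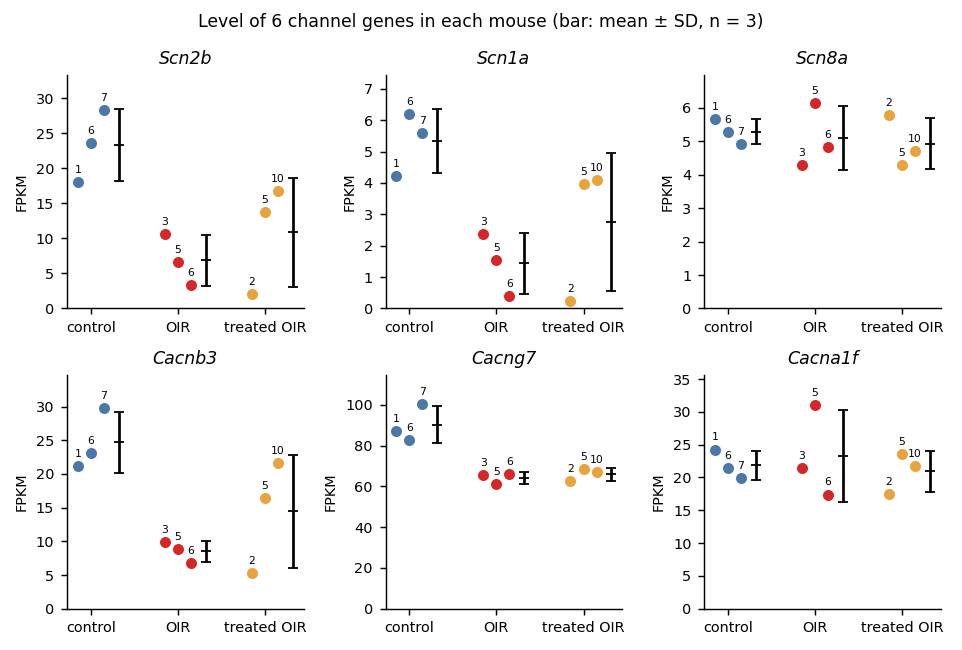
FPKM of 6 channel genes in each mouse, numbered by replicate, with black bars for the mean ± SD of 3 mice. Scn2b, Scn1a and Cacnb3 are below all control mice in each OIR mouse and in treated OIR mouse 2, Cacng7 is below control in all OIR and treated OIR mice, and Scn8a and Cacna1f overlap between groups.

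The pores of the presynaptic calcium channels of central synapses were lower in OIR. Cacna1a, the P/Q-type pore, had means of 5.15 ± 0.600 FPKM in control and 1.89 ± 0.697 in OIR mice, and Cacna1b, the N-type pore, 3.06 ± 0.205 and 1.27 ± 0.356 (SD, n = 3). Neither overlapped between the groups, and their log2 fold changes were -1.45 (SE 0.51, edgeR adjusted p = 0.139) and -1.27 (SE 0.38, edgeR adjusted p = 0.101). Cacna1e, the R-type pore, and the L-type pore Cacna1c were also lower in every OIR mouse, at -1.18 (SE 0.57) and -1.50 (SE 0.41). T-type pores, which open near rest, were split. Cacna1i and Cacna1g were lower in each OIR mouse, at -0.90 (SE 0.31) and -0.45 (SE 0.14), while Cacna1h was at 15.8, 15.6 and 12.8 FPKM in controls, 14.6, 19.9 and 14.9 under OIR, and 14.2, 13.4 and 12.8 under OIR with 32-134D. Its groups overlapped, at 0.16 (SE 0.14). The L-type pore Cacna1d overlapped at -0.21 (SE 0.23), as did Cacna1s, the pore of skeletal muscle, at 0.30 (SE 0.35). Cacna1f was at 24.3, 21.4 and 19.9 FPKM in controls, 21.5, 31.1 and 17.4 under OIR, and 17.5, 23.5 and 21.7 under OIR with 32-134D. OIR mouse 5 was the highest and OIR mouse 6 the lowest of the 9, and the log2 fold change was 0.09 (SE 0.21, edgeR adjusted p = 0.826). Exons of Cacna1h, Cacna1a, Cacna1d and Cacna1s share 158, 435, 589 and 1309 bases with a gene on the opposite strand, those of Cacnb4, Cacng2, Scn9a, Cacna2d2 and Cacnb1 share 80 to 1433, and whether counting used the strand is not given in the sources used here.

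Of the 4 alpha2delta genes, only Cacna2d4 was above control in OIR, at 31.7, 36.9 and 34.4 FPKM in controls, 39.5, 46.0 and 39.0 under OIR, and 37.1, 36.1 and 36.3 under OIR with 32-134D. All 3 OIR mice exceeded all 3 control mice, and the log2 fold change was 0.27 (SE 0.11, edgeR adjusted p = 0.173). The other alpha2delta genes were lower in every OIR mouse, with log2 fold changes of -1.07 (SE 0.44) for Cacna2d2, -0.62 (SE 0.27) for Cacna2d1, which binds gabapentin, and -0.60 (SE 0.15) for Cacna2d3. Calcium beta genes divided in the same way. Cacnb3 had 21.2, 23.1 and 29.8 FPKM in controls, 9.92, 8.81 and 6.82 under OIR, and 5.25, 16.4 and 21.6 under OIR with 32-134D, and its OIR mice were below 10 FPKM with a log2 fold change of -1.54 (SE 0.42, edgeR adjusted p = 0.0881). Cacnb4 and Cacnb1 were lower too, at -1.51 (SE 0.52) and -0.92 (SE 0.34). Cacnb2 was at 8.36, 10.01 and 9.63 FPKM in controls, 11.9, 11.4 and 10.3 under OIR, and 8.83, 12.7 and 11.1 under OIR with 32-134D. Its OIR mice were all above its control mice, at 0.26 (SE 0.14, edgeR adjusted p = 0.288), and its exons share 618, 239 and 111 bases with 3 genes on the opposite strand.

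All 6 gamma genes tested were lower in every OIR mouse, with a median of -0.95. Cacng7, an AMPA receptor auxiliary subunit and the most abundant member in control retinas, was at 87.3, 83.0 and 100.4 FPKM in controls, 65.6, 60.9 and 66.2 under OIR, and 62.4, 68.6 and 66.9 under OIR with 32-134D. The 3 OIR mice lay within 6 FPKM of each other and the log2 fold change was -0.49 (SE 0.10, edgeR adjusted p = 0.0576), the smallest error of the list. Cacng5 had 11.4, 16.2 and 22.2 FPKM in controls, 7.57, 5.20 and 1.92 under OIR, and 0.993, 11.8 and 15.3 under OIR with 32-134D. It had the widest spread of the gamma genes, with a log2 fold change of -1.76 (SE 0.80, edgeR adjusted p = 0.221). Cacng2, the classical AMPA receptor auxiliary subunit stargazin, and Cacng3, Cacng8 and Cacng4 were at -1.38 (SE 0.55), -0.99 (SE 0.29), -0.92 (SE 0.38) and -0.58 (SE 0.23). Neighbours on a chromosome had unequal log2 fold changes, such as Cacng7 at -0.49 beside Cacng8 at -0.92 and Scn7a at 0.14 beside Scn9a at -0.90, and the differences between them were not tested.

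**Figure D3:**
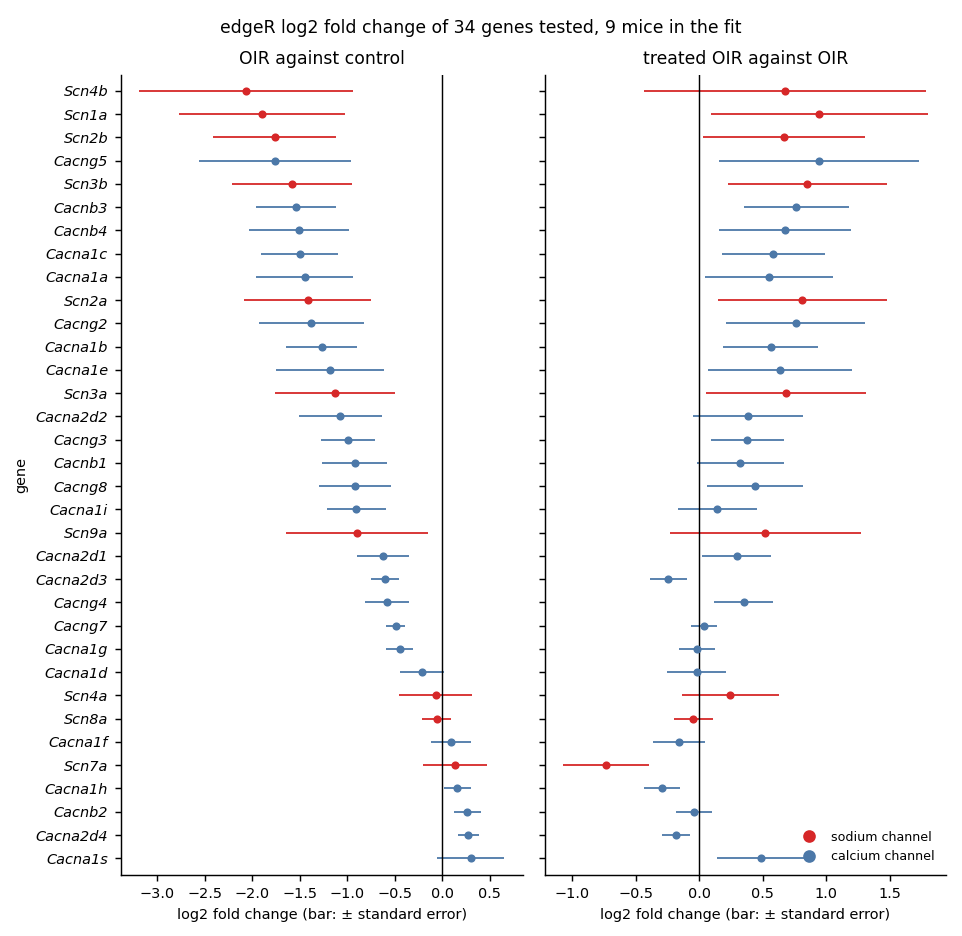
Log2 fold changes from edgeR with all 9 mice, shown as points with bars of 1 standard error, for OIR against control and for treated OIR against OIR; genes are in the same order in both panels and the panels share the OIR mice. Scn4b, Scn1a and Scn2b sit at the low end in OIR, between -2.06 and -1.76, and the values of treated OIR against OIR are smaller, from -0.74 to 0.95, with wide bars.

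The make-up of the sodium alpha, calcium beta and alpha2delta classes differed between OIR and control mice. The alpha2delta sums nevertheless overlapped, at 50.9 to 60.1 FPKM in control and 48.3 to 60.4 in OIR mice. Scn8a took 25.6% ± 3.13 of the sodium alpha FPKM in controls (23.5% to 29.2%). Under OIR it took 27.6%, 40.7% and 48.3%, so OIR mouse 3 lay within the control range. Scn1a took 25.6% ± 3.43 in control and 15.3%, 10.1% and 4.11% in OIR (SD, n = 3). With 32-134D Scn8a took 60.8%, 24.0% and 24.1%, so mice 5 and 10 lay within the control range. Among calcium beta genes, Cacnb2 went from 20.9% ± 2.08 of the class to 43.5%, 43.5% and 48.8%, and Cacnb3 went from 54.7% ± 2.61 to 36.2%, 33.6% and 32.4%. Cacna2d4 held 61.9% ± 0.442 of the alpha2delta FPKM in control and 75.9%, 76.2% and 80.7% in OIR mice.

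**Figure D4:**
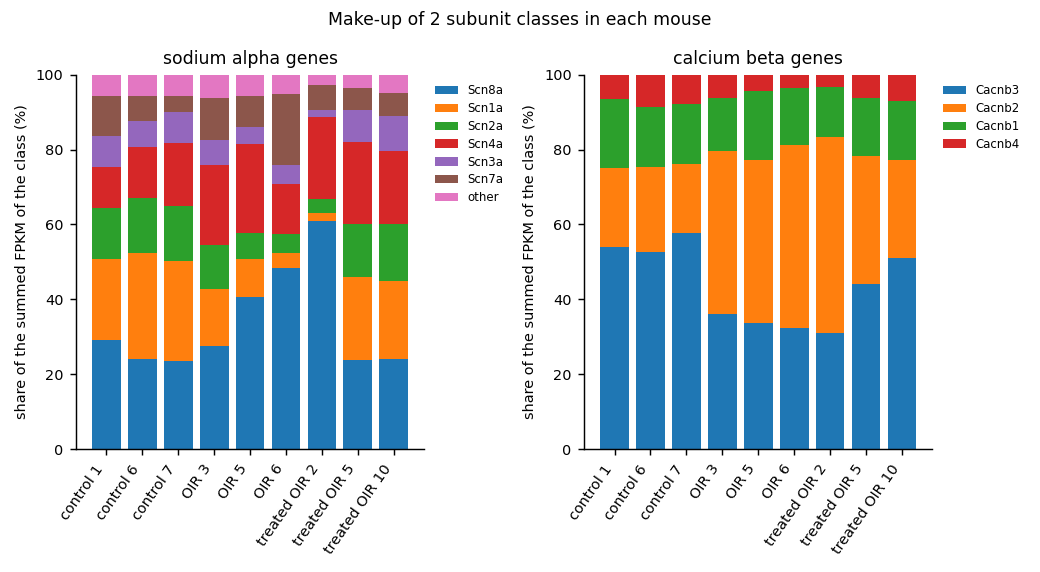
Share of each gene in the summed FPKM of its class, in percent, with 1 bar per mouse for the sodium alpha and the 4 calcium beta genes; the sodium alpha genes of low level are drawn together as other. Scn8a reaches 60.8% in treated OIR mouse 2 while Scn1a is at 2.33% there, and Cacnb2 exceeds Cacnb3 in the 3 OIR mice and treated OIR mouse 2 only.

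Ganglion and amacrine cell markers were lower alongside these genes. The summed FPKM of 9 ganglion cell markers ranged from 547 to 753 in controls and was 262, 166 and 57.6 under OIR and 33.2, 426 and 429 under OIR with 32-134D. All 9 were lower in every OIR mouse than in any control mouse, none at 0, and so were all 8 amacrine markers, beside 17.2% of all genes tested. The amacrine sum ranged over 148 to 197 FPKM in controls, and was 87.4, 76.4 and 46.9 under OIR and 42.0, 101 and 147 under OIR with 32-134D. All 5 red blood cell markers were likewise lower in every OIR mouse than in any control mouse. Sums of 7 rod markers were 8167 to 13022 FPKM in control and 6551 to 10765 in OIR mice, and those of 8 bipolar markers 222 to 248.8 and 238 to 249.6, so these overlapped. Of 5 horizontal cell markers, 3 were higher in every OIR mouse than in any control mouse and 0 lower, beside 15.9% and 17.2% of all genes. Their median log2 fold change was 0.67, and their sums overlapped at 25.9 to 38.3 FPKM in control and 26.9 to 35.2 in OIR mice. As a share of the control mean, the ganglion cell sum was at 42.1%, 26.7% and 9.26% in OIR mice 3, 5 and 6. The amacrine sum was at 49.6%, 43.3% and 26.6%. Genes that were lower in every OIR mouse did not share 1 order over these mice. Scn2b was at 45.4%, 28.4% and 14.5%, and Cacng5 at 45.7%, 31.4% and 11.6%, but Cacng7 was at 72.7%, 67.5% and 73.4%, and Cacna1g at 62.5%, 73.2% and 84.5%. The calcium alpha1 sum was 83.0%, 106% and 73.6% and the alpha2delta sum 93.9%, 109% and 87.1%. Such sums mix unlike genes: within calcium alpha1, Cacna1a was at 46.5%, 42.4% and 21.3% and Cacna1f at 98.3%, 142% and 79.6%. The part of these markers in the channel results was not tested.

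**Figure D5:**
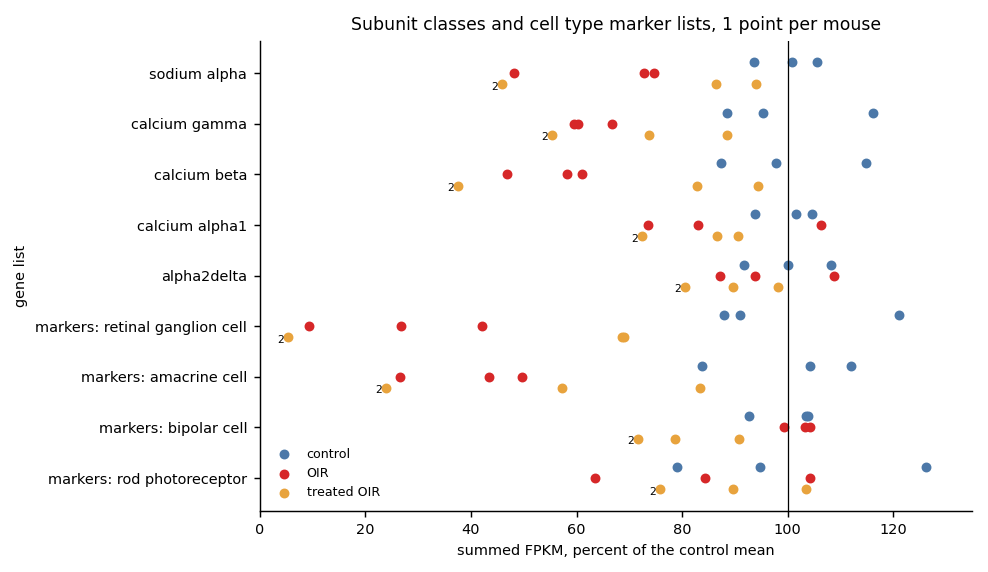
Summed FPKM of 5 subunit classes and of 4 cell type marker lists in each mouse, as a percent of the control mean, with 1 point per mouse and treated OIR mouse 2 numbered. Ganglion cell markers lie below 45% in all OIR mice, whereas alpha2delta genes and bipolar markers stay above 70% in all 9 mice.

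Treated OIR mice were compared with control mice, which are the same 3 that served for OIR. Most channel genes had a value below control in the treated retinas, with 1 mouse far from the others. In 13 of 36 genes every treated OIR mouse was below every control mouse, in 0 above, beside 12.2% and 12.8% of all genes, and the median log2 fold change was -0.60 (0.01 over all genes). No member passed an adjusted p below 0.05 in edgeR, which called 0.0114% of all genes in each direction, and 6 were lower and 0 higher at an unadjusted p below 0.05 (8.60% and 10% of all genes). Scn4b and Scn2b were lowest among the 13, at -1.39 (SE 1.10) and -1.10 (SE 0.64), and Cacng7 was at -0.45 (SE 0.10, edgeR adjusted p = 0.112). Without treated OIR mouse 2 the median was -0.28, and DESeq2 on the control and treated groups then called 6 lower, among them Scn2b, Scn4b, Cacna1g, Cacna2d3 and Cacng7, beside 1.55% of all genes lower and 1.05% higher. Without treated OIR mouse 10 the median was -0.95. In that edgeR fit 16 were lower and 1 higher at an unadjusted p below 0.05, and the share of all genes was not counted.

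Treated OIR mice were compared with OIR mice to ask whether the inhibitor moves these genes in the ischemic retina. Treated OIR mice 5 and 10 had higher levels of most channel genes than any OIR mouse, and treated OIR mouse 2 lower levels, so the group did not differ from OIR beyond its spread. In edgeR no gene among the 36, and none of all 17540, passed an adjusted p below 0.05, none of the 36 passed an unadjusted p below 0.05 (2.39% of all genes were higher and 2.30% lower), and the median log2 fold change was 0.41 (0.01 over all genes). Every treated mouse was above every OIR mouse in 0 genes (3.74% of all genes) and below in 3 (5.39% of all genes), Scn7a at -0.74 (SE 0.34), Cacna1h at -0.29 (SE 0.14) and Cacna2d4 at -0.19 (SE 0.11).

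Mouse by mouse, the treated retinas spanned a wider range in these genes than the OIR retinas. Treated OIR mouse 2 was below all 3 OIR mice in 27 of 36 genes, and its median log2 difference from the control mean was -1.77, compared with -0.67, -0.74 and -1.33 in OIR mice 3, 5 and 6. The same median was -0.44 and -0.12 for treated OIR mice 5 and 10. Both were above all OIR mice in 25 of 36 genes, or 69.4%, where 16.1% of all genes tested were, and both below in 3, Scn7a, Cacna1h and Cacna2d4, or 8.33%, which is under the 17.1% over all genes. Treated OIR mouse 5 lay within the control range in 8 genes and treated OIR mouse 10 in 15, compared with 2 for treated OIR mouse 2 and 3 to 5 for the OIR group. Treated OIR mouse 2 was set apart by its crystallin counts, a choice made after the data were seen.

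With treated OIR mouse 2 left out, edgeR put 21 of 37 genes higher and 1 lower than in OIR at an unadjusted p below 0.05, beside 8.35% and 4.69% of all genes, with a median of 0.70. None of the 37 passed an adjusted p below 0.05, the smallest being 0.190. DESeq2 on the OIR and treated groups without that mouse called 8 higher, among them Scn3a, Scn3b, Cacna1a, Cacna1b, Cacnb3, Cacnb4 and Cacng2, and none lower, beside 1.29% and 1.30% of all genes. With the mouse kept in, DESeq2 on these groups called none of the 40 genes. The share of all genes called in that fit was not counted, and the smallest DESeq2 adjusted p over all genes there was 2.49e-11. That mouse had high lens markers, low ganglion cell markers and low channel genes, and how these relate was not tested. In OIR mice 3, 5 and 6, lens sums were 376, 99.5 and 17.2 FPKM and ganglion cell sums 262, 166 and 57.6 FPKM. Control mice 1, 6 and 7 had lens sums of 106, 67.7 and 6.49 FPKM and ganglion cell sums of 547, 567 and 753 FPKM. For treated OIR mice 2, 5 and 10 the lens sums were 51648, 174 and 4.29 FPKM and the ganglion cell sums 33.2, 426 and 429 FPKM.

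A list of 40 partner genes held genes for proteins that bind or regulate these channels, and 4 genes of the separate sodium leak channel complex. Those 4 were Nalcn, Unc79, Unc80 and Fam155a. Of the 40, 39 were tested and none passed an adjusted p below 0.05 in edgeR for OIR against control. At an unadjusted p below 0.05, 3 were higher and 15 lower, beside 11.1% and 12.7% of all genes, so the higher ones were a smaller share than among all genes, and the median log2 fold change was -0.32. The 15 lower genes included 2 of the leak channel complex. Rims1, whose protein tethers calcium channels at the active zone, was at 12.4, 16.3 and 19.7 FPKM in controls, 2.18, 2.18 and 1.53 under OIR, and 1.09, 3.74 and 20.6 under OIR with 32-134D. All OIR mice and treated OIR mice 2 and 5 were below 4 FPKM, while treated OIR mouse 10 lay above the control mice, and its log2 fold change was -3.04 (SE 0.85, edgeR adjusted p = 0.0931). Cabp1, a calcium sensor that modulates calcium channels, was at -1.67 (SE 0.43), and Fgf12, a protein that binds the tail of sodium alpha subunits, at -1.51 (SE 0.60). The higher ones were Akap5, a kinase anchor at L-type channels, at 0.82 (SE 0.33), Gem, a small GTPase that inhibits calcium channels through their beta subunit, at 0.55 (SE 0.16), and Ctbp2, whose gene also encodes the main protein of the synaptic ribbon, at 0.34 (SE 0.11). Without treated OIR mouse 2, edgeR called 15 of these genes in OIR, 14 lower and 1 higher, beside 8.59% and 3.95% of all genes. For treated OIR against OIR edgeR again called none. Rims1 was at 2.11 (SE 0.83), which rested on treated OIR mouse 10: without that mouse it was at 0.30 (SE 0.44).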

How the data were processed

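Retinal RNA of 9 mice was sequenced, and each mouse was 1 replicate of the group given by its title. Where mice were not separate animals, p values measure only the spread between samples. The table that the authors deposited holds raw counts, as integers for each gene, and gene lengths. The submitters' processing notes name CASAVA and HISAT, and the counting tool, annotation and strand setting are not given in the sources used here. The 40 genes lie at the positions of GENCODE M21 (GRCm38).

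The fit used edgeR 4.0.16 (R 4.3.3) with TMM scaling, the default filter by group, and a quasi-likelihood fit of all 9 mice with 1 mean per group. Adjusted p values are Benjamini-Hochberg over all 17540 genes tested, called below 0.05. Log2 CPM used a prior count of 2, and the standard error is the absolute log2 fold change over the root of F. FPKM used TMM-scaled library sizes. Alternatives were other scalings and filters, DESeq2 1.42.0, limma 3.58.1 with voom and leaving out each mouse; the code was tested on simulated data. Members and lists were chosen with earlier results of these data known. Values in every mouse are given for called genes, the 3 largest rises and falls without overlap in each comparison (mean log2 CPM of at least 1), the most abundant gene of each class, and Cacna1f, Cacna2d4, Cacnb2, Scn1a, Scn2a and Scn8a; others were named after their values were seen. Libraries of 16028731 to 27213184 counts leave the spread among 3 mice as the limit of precision. Zero limits cover counting error only. Some of the 40 genes are not reported here by name.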

Additional observations from a re-analysis of the deposited data

How the results depend on the processing

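The median log2 fold change of the members kept its direction in each of 18 alternatives, from -1.16 to -0.78 for OIR against control, from -0.95 to -0.28 for treated OIR against control and from 0.03 to 0.70 for treated OIR against OIR. Counts of calls moved more, and the cause was not tested apart from the samples each fit holds. The counts below pool both directions. Shares of all genes were counted for only some of these fits, and are given above. A change in these counts is therefore not a result about the members.

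For OIR against control, members called at adjusted p numbered 2 with no filter, 1 with 10 counts in every mouse, 19 in edgeR on 2 groups, 11 in DESeq2 on all 9 mice, 24 in DESeq2 on 2 groups and 17 in limma-voom, and 0 to 22 when a mouse was left out. Those at unadjusted p numbered 13 with total counts alone and 9 to 28 when a mouse was left out, lowest without OIR mouse 6, control mouse 7 (10) or OIR mouse 5 (12). Partner genes called numbered 18 in DESeq2 on 2 groups and 0 to 15 when a mouse was left out. For treated OIR against control, 2, 1 and 3 members were called in DESeq2 on all 9 mice, DESeq2 on 2 groups and limma-voom, and 6 in DESeq2 on 2 groups without treated OIR mouse 2, a fit chosen after seeing the data. At unadjusted p, 3 passed with total counts alone, 12 with no filter, 3 in edgeR on 2 groups, 12 in DESeq2 on all 9 mice, 10 in DESeq2 on 2 groups and 11 in limma-voom, and 4 to 17 when a mouse was left out. For treated OIR against OIR, that added fit called 8, and at unadjusted p 1 passed with total counts alone, 3 with no filter, 1 in edgeR on 2 groups, 2 in each DESeq2 fit and 9 in limma-voom, and 0 to 22 when a mouse was left out.

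Signs turned for several of the named genes. For OIR against control, Scn8a was at 0.0056 with total counts alone. For treated OIR against control, Cacna1f was at 0.0723 in limma-voom. For treated OIR against OIR, Cacng7 was at -0.0515 with total counts alone and Cacnb2 at 0.0871 in limma-voom. Over the fits that left out a mouse, log2 fold changes ran from -0.168 to 0.266 for Cacna1f, -0.215 to 0.0551 for Scn8a and -0.105 to 0.455 for Scn7a in OIR against control, from -0.157 to 0.0535 for Cacna1f in treated OIR against control, and from -0.330 to 0.105 for Cacna1f, -0.155 to 0.112 for Scn8a and -0.167 to 0.117 for Cacnb2 in treated OIR against OIR. Over all alternatives, Scn4a ran from -0.31 to 0.27 in OIR against control, from -0.09 to 0.51 in treated OIR against OIR and from -0.01 to 0.43 in treated OIR against control. In the last, Scn3a ran from -0.92 to 0.07 and Scn9a from -0.75 to 0.08, and in treated OIR against OIR the signs of Cacna1d, Cacna1g, Cacna1i, Cacna2d1 and Cacna2d2 also turned.

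No paired analysis was possible because the sample titles give no pairing of mice between groups. With 3 mice a group, no test for a mouse that stands apart within a group was run.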
